A study of Homo sapiens with 156 samples.

Results

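NOMO1 cells, a human acute myeloid leukemia (AML) line, were treated for 4 days with decitabine (DAC), and the high doses of 2000 and 10000 nM were compared with the middle doses of 80 and 400 nM. The high group held 4 libraries and the middle group 4, taken by their labels, 8 of the 156 RNA-seq libraries of the series. The DMSO libraries of day 4 (0 nM, 2 libraries) gave the untreated level. Genes were sorted by whether the middle doses moved them away from DMSO and the high doses moved them back, or whether the high doses moved them while the middle doses, on average, did not. NOMO1 at the same 4 doses of GSK032, one of the DNMT1 inhibitors of the series, NOMO1 with 400 nM DAC on days 1, 2 and 6, and 2 other AML lines, THP1 and MV411, at the same DAC doses were read beside them. Every group held 2 libraries of total RNA. Whether both grew in cultures of their own is not labelled, and the p-values below cover the spread between libraries, which may be technical only.

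DNA methyltransferase 1 (DNMT1) copies methylation onto the new strand after replication. Decitabine is a cytidine analog that cells phosphorylate and build into DNA, where it traps DNA methyltransferases in covalent complexes. Methylation is then diluted as cells divide, and genes silenced by it, among them the cancer-testis antigens that are normally limited to germ cells, can be transcribed. At high doses the trapped complexes are also known to damage DNA and to slow division.

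Values are the authors' FPKM, a read density per length of gene and depth of library. The FPKM of the 10 libraries summed to 1312157 to 1788367, and low values moved in steps that put their depth at about 61.2 to 129 M fragments. The second 80 nM library stood apart. In it, 57.6% of low values lay within 0.15 of a whole number of fragments, against at least 70.2% in the other 9, and the 80 nM pair correlated at 0.953 across genes, against 0.965 to 0.977 for the pairs of the other DAC and DMSO groups of day 4. All 8 markers of the myeloid line (CD33, ANPEP, CD14, LYZ, SPI1, CEBPA, KMT2A and PTPRC) reached 1 FPKM in each of the 10 libraries. Their sum was 1772 to 2616 FPKM at high doses, 2925 to 5057 FPKM at middle doses and 4026 to 4074 FPKM in DMSO.

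Across 20763 tested genes, 1346 (6.48%) were called. Of these, 1025 were higher and 321 lower at the high doses than at the middle doses, 4.94% and 1.55% (limma on log2(FPKM + 0.5), Benjamini-Hochberg adjusted p under 0.05 and a difference of at least 1 on the log2 scale). By single steps, 901 genes (4.34%) were higher and 152 (0.732%) lower at 400 than at 80 nM. At 2000 against 400 nM 197 (0.949%) were higher and 111 (0.535%) lower, and at 10000 against 2000 nM 64 (0.308%) and 80 (0.385%). Against DMSO, the high doses gave 3267 higher (15.7%) and 1799 lower calls (8.66%) and the middle doses 1988 (9.57%) and 703 (3.39%). Of the high-dose calls against DMSO 64.5% were higher, and 76.5% were with median-of-ratios scaling, which moved the median of all genes by 0.15 on the log2 scale. With 400 nM alone as the middle dose, 636 genes were called between high and middle doses, and with 80 nM alone 2649, where both together gave 1346.

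Of the 1346 called genes, 101 had been called higher at middle doses than in DMSO and fell again at high doses, and 20 had been called lower and rose again. Another 409 that were higher at middle doses rose further, and 51 that were lower fell further. The middle doses left 174 genes within 0.5 on the log2 scale of DMSO that were higher at high doses and 42 that were lower. Since both contrasts hold the middle libraries, these counts describe the sorting and have no test of their own. The other called genes, 422 higher and 127 lower, met none of these definitions. Without the second 80 nM library, 1352 genes were called between high and middle doses, 115 of them higher at middle doses and lost again, 182 higher and 52 lower at high doses only.

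The 101 genes lost again had a median of 2.06 above DMSO at middle doses and fell by a median of 1.32 at high doses, both on the log2 scale. In 53 of them the highest dose group was 400 nM, in 46 it was 80 nM and in 2 it was 16 nM. The decline continued with dose, since 82 were lower at 10000 than at 2000 nM by the group mean. At high doses 36 were still called above DMSO, 65 were not called against it and none was called below. High and middle libraries did not overlap in 64 of the 101, where 12.4% of all tested genes were lower without overlap. The same libraries chose the 101, so this is a description. Of all 1346 called genes, in either direction, 1148 did not overlap. Of the 101, 61 were protein coding, and 30 were shorter than 200 exonic bases or absent from the annotation, which makes their FPKM uncertain.

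EPX and CLC, both known from eosinophils, had the largest falls among the genes lost again that were named by rule. No list of eosinophil genes was tested, and RNASE2, an eosinophil ribonuclease described with the high-dose genes, was not higher than DMSO at middle doses. In bulk libraries, fewer cells of a type and less RNA per cell cannot be told apart. EPX, the eosinophil peroxidase (chr17:58192737-58205174, hg38), was at 10.7 and 9.42 FPKM at 2000 nM and 6.38 and 5.77 FPKM at 10000 nM, against 82.5 and 86.9 FPKM at 80 nM and 39.4 and 30.9 FPKM at 400 nM. In DMSO it was at 10.9 and 7.59 FPKM, so the 2000 nM libraries lay near DMSO, the 10000 nM ones just below it, and no high library reached a middle one. The difference was -2.72 ± 0.16 on the log2 scale (high minus middle, SE, adjusted p = 2.4e-14, limma). CLC, which encodes the Charcot-Leyden crystal protein of eosinophils and basophils (chr19:39731250-39738028), was at 349 and 319 FPKM at 2000 nM and 94.9 and 96.2 FPKM at 10000 nM, against 1594 and 848 FPKM at 80 nM and 1017 and 972 FPKM at 400 nM. In DMSO it was at 97.8 and 74.1 FPKM, so its 10000 nM libraries were back at that level, and its 80 nM libraries differed more than the other pairs. CLC fell by 2.59 ± 0.13 on the log2 scale (SE, adjusted p = 8.99e-16, limma).

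PRG2, the eosinophil major basic protein, HDC, the enzyme that makes histamine, and IL1RL1, the receptor for interleukin 33, were picked from the 101 after their values were seen. PRG2 was at 324 to 413 FPKM at high doses, against 698 to 1252 FPKM at middle doses and 98.3 and 67.6 FPKM in DMSO. HDC was at 3.62 to 9.33 FPKM at high doses, 11.3 to 20.5 FPKM at middle doses and 0.195 and 0.114 FPKM in DMSO. IL1RL1 was at 2.14 to 6.62 FPKM, 6.68 to 14.1 FPKM and 0.325 and 0.165 FPKM in the same order. None of the 3 overlapped between high and middle libraries, like 64 of the 101, where 12.4% of all tested genes were lower without overlap. The same libraries chose these genes, so this is a description, and IL1RL1 was apart only by 6.62 against 6.68 FPKM. All 3 stayed above both DMSO libraries at 10000 nM.

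The transcription factors GATA1 and GATA2, which direct these lineages and the erythroid and megakaryocytic ones, had the same course. GATA1 (chrX:48786554-48794311) was at 6.86 and 6.2 FPKM at 2000 nM and 2.35 and 2.38 FPKM at 10000 nM, against 17.4 and 18.6 FPKM at 80 nM and 17.8 and 15.7 FPKM at 400 nM. In DMSO it was at 0.208 and 0.253 FPKM, and its 80 and 400 nM libraries lay side by side. It fell by 1.99 ± 0.10 on the log2 scale (SE, adjusted p = 4.4e-16, limma). GATA2 was at 40.6 to 86.2 FPKM at high doses, 98.9 to 156 FPKM at middle doses and 8.38 and 8.3 FPKM in DMSO. ITGA2B, the platelet integrin chain, was at 31.7 and 28.5 FPKM at 2000 nM and 12.4 and 13.7 FPKM at 10000 nM, against 48.8 and 56.4 FPKM at 80 nM and 86.7 and 71.5 FPKM at 400 nM, and at 1.54 and 1.84 FPKM in DMSO. GP9, a platelet adhesion glycoprotein, also fell, to 3.82 to 4.57 FPKM at high doses against 8.47 to 11.1 FPKM at middle doses. Of the 11 tested genes of the erythroid and megakaryocyte list, ITGA2B, GATA1, GP9 and GATA2 fell and 1, ITGB3, rose. Over all tested genes 1.55% fell and 4.94% rose, and the 1 that rose here is near that share. ITGB3, the partner chain of ITGA2B, was at 2.8 to 2.91 FPKM at high doses, against 0.505 to 1.73 FPKM at middle doses and 0.176 and 0.0916 FPKM in DMSO. The list summed to 156 to 238 FPKM at high doses, 267 to 379 FPKM at middle doses and 68.5 to 72.8 FPKM in DMSO. KLF1, TAL1, PF4, HBB and ALAS2 were among the 9 members too low to test.

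STAR and CYP11A1, both of steroid synthesis, were also lost again. STAR, which brings cholesterol into mitochondria (chr8:38143649-38151265), was at 29.6 and 22.1 FPKM at 2000 nM and 11.3 and 9.42 FPKM at 10000 nM, against 127 and 109 FPKM at 80 nM and 85.1 and 72.7 FPKM at 400 nM. Its DMSO level was 19.1 and 18.8 FPKM, above both 10000 nM libraries. STAR fell by 2.52 ± 0.08 on the log2 scale (SE, adjusted p = 6.76e-20, limma). CYP11A1, which makes the first step from cholesterol to steroids (chr15:74337759-74367740), was at 15.4 and 14.9 FPKM at 2000 nM and 5.4 and 6.19 FPKM at 10000 nM, against 37.7 and 39.7 FPKM at 80 nM and 48.1 and 46.5 FPKM at 400 nM. In DMSO it was near 0, at 0.283 and 0.0881 FPKM, and its 10000 nM libraries lay far below the 400 nM level and above DMSO. NR5A1, the transcription factor of steroid-producing cells, chosen after its values were seen, was at 3.1 to 6.86 FPKM at high doses, 12.4 to 13.8 FPKM at middle doses and 0.116 and 0.00556 FPKM in DMSO. CYP19A1, the aromatase that makes estrogens, did not follow them and rose, to 2.93 to 13.7 FPKM at high doses against 0.511 to 1.84 FPKM at middle doses and 0.339 and 0.327 FPKM in DMSO. No list of steroid synthesis genes was tested. CROT, a carnitine acyltransferase of peroxisomes, fell to 13.2 and 12.3 FPKM at 10000 nM, against 75.6 to 109 FPKM at middle doses, with 19.2 and 15.6 FPKM in DMSO.

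**Figure D1:**
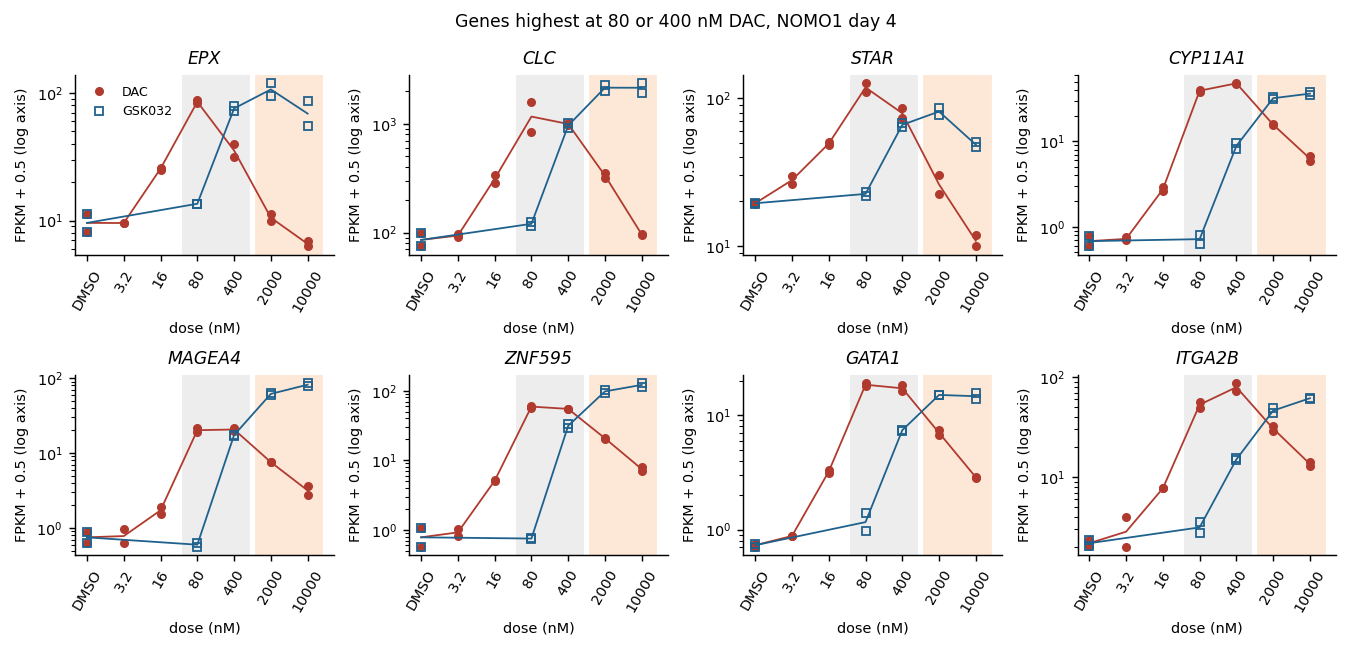
FPKM + 0.5 (log axis) of 8 genes lost again, against dose in nM with DMSO at the left. Each point is 1 NOMO1 library of day 4 (filled red, DAC; open blue, GSK032, whose 3.2 and 16 nM groups are not drawn), lines join geometric means, and grey and orange bands mark the middle and high doses. With DAC every gene turns down after 80 or 400 nM, while with GSK032 MAGEA4, ZNF595 and ITGA2B are highest at 10000 nM.

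Of 25 tested germline and cancer-testis genes, 19 were called above DMSO at high doses and 21 at middle doses, where 15.7% and 9.57% of all tested genes were. At high doses 1 was called below DMSO, against 8.66% of all. MAGEA4, a MAGE family antigen (chrX:151912509-151925170), was at 7.01 and 7.12 FPKM at 2000 nM and 2.27 and 3.13 FPKM at 10000 nM, against 20.9 and 18.5 FPKM at 80 nM and 19.0 and 21.3 FPKM at 400 nM. Its DMSO libraries held 0.385 and 0.138 FPKM, and the 8 DAC libraries fell into 3 levels, with 80 and 400 nM together, 2000 nM below them and 10000 nM lowest. MAGEA4 fell by 2.06 ± 0.16 on the log2 scale (SE, adjusted p = 5.45e-12, limma). PNMA5, of the paraneoplastic antigen family and also on chromosome X, was at 5.64 to 15.7 FPKM at high doses, 27.8 to 34.7 FPKM at middle doses and 0.624 and 0.0955 FPKM in DMSO. Between high and middle doses MAGEC2, MAGEA4, PAGE5 and PNMA5 fell and SYCP3 rose among the 25, where 1.55% of all tested genes fell and 4.94% rose. The 1 gene that rose is near that share. The list had a median of -0.56 between high and middle doses, where all tested genes had a median of 0. SYCP3, a protein of the meiotic chromosome axis, was at 4.78 to 6.93 FPKM at high doses, 1.14 to 4.54 FPKM at middle doses and 0.167 and 0.0715 FPKM in DMSO. Of the 101 genes lost again 8 lay on chromosome X (7.92%), as did 3.11% of all tested genes.

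ZNF595, a zinc finger gene near the tip of the short arm of chromosome 4 (chr4:53285-88211), was at 19.9 and 20.5 FPKM at 2000 nM and 7.53 and 6.45 FPKM at 10000 nM, against 56.9 and 60.5 FPKM at 80 nM and 54.2 and 54.4 FPKM at 400 nM. DMSO held 0.565 and 0.0703 FPKM. All 4 middle libraries lay within a narrow band, and the fall was 2.20 ± 0.12 on the log2 scale (SE, adjusted p = 4.51e-15, limma). Histone genes were also among the 101, namely HIST1H1A, HIST1H1T, HIST1H2BA, HIST1H2BB, HIST1H3C and HIST1H4F. Reads of histone genes alike in sequence can be shared, and how far this holds for each of these was not tested. HIST1H1A was at 7.89 to 16.1 FPKM at high doses, 19.3 to 32.7 FPKM at middle doses and 0.684 and 0.203 FPKM in DMSO. DEFA1 and DEFA3, near-identical defensin genes, were lost again too and are uncertain, since their reads can be shared.

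The imprinted DLK1 to MEG3 region (chr14:100725705-101066801, hg38) held 18 of the 101 genes lost again, 17.8%, against 0.395% of all tested genes. Of these, 17 were small nucleolar RNA or miRNA genes shorter than a usual sequenced fragment, so their levels are uncertain, and the other was the noncoding RNA AL117190.1. The long noncoding hosts of the region, MEG3 and MEG8, were not called. They differed by -0.67 ± 0.15 and -0.88 ± 0.14 between high and middle doses on the log2 scale (SE). DLK1, a Notch-family ligand at the start of the region, rose further with dose, at 5.61 to 7.9 FPKM at high doses, 0.775 to 4.03 FPKM at middle doses and 0.135 and 0.0422 FPKM in DMSO.

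Promoter windows were set beside the classes, since methylation is written at CpG. RefSeq windows of GRCh38.p14, from 250 bases before to 50 bases after the start, were found for 42 of the 101 genes lost again and for 11049 of the 20763 tested genes. The 42 held a median of 9.5 CpG in 300 bases, against 26 over all. The 64 windows of high-dose-only higher genes held a median of 20, the 246 of genes that rose further 16.5 and the 21 of high-dose-only lower genes 17. At least 15 CpG were found in 35.7% of the windows of genes lost again and in 78.4% of all. The letters AGATAA or TGATAA, on either strand, which GATA factors are known to bind, stood in 8 of the 42 windows (19.0%) and in 8.48% of all, and 12.2% of the windows of genes that rose further. They stood in 12.5% of the windows of high-dose-only higher genes and 4.76% of those of high-dose-only lower genes. Of the other words searched, TATAAA stood in 9.52% of the 42 windows and 6.0% of all, and CACGTG in 7.14% and 10.1%. These are matches of letters, not measured sites, and a part of GATA factors in the changes was not tested. The windows of 3 genes lost again and of SPARC, which rose further at high doses, are shown because their CpG counts lie far below the median of all windows. Capitals mark each CpG, 5′ to 3′ on the gene's strand.
CLC (chr19:39737980-39738279, minus strand): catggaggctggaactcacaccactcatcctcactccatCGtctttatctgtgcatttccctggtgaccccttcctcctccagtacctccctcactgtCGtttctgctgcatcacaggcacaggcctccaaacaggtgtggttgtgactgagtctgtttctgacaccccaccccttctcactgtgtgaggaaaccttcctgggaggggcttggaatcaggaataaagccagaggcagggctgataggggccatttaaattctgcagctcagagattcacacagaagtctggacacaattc
GATA1 (chrX:48786340-48786639, plus strand): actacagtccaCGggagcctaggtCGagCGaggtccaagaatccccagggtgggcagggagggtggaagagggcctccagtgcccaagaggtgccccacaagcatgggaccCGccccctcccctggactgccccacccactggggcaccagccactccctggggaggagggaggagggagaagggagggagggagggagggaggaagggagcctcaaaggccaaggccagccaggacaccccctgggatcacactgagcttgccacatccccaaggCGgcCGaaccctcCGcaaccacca
MAGEA4 (chrX:151912224-151912523, plus strand): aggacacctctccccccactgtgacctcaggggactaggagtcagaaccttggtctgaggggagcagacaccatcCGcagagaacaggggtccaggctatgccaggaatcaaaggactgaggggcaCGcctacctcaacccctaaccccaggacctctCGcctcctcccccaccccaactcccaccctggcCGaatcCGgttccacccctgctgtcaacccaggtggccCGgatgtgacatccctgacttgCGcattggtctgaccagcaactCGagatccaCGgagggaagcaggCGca
SPARC (chr5:151686866-151687165, minus strand): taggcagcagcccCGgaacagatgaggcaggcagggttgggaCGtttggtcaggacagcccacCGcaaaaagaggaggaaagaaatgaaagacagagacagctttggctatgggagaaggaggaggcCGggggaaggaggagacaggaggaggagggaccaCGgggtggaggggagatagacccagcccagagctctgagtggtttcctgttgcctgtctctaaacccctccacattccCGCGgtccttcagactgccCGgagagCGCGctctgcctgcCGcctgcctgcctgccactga
CLC held 2 CpG and 1 AGATAA, read on the other strand. GATA1 held 7 CpG, MAGEA4 10 and SPARC 11. LARP6, which rose at high doses, held 49, the most of its class. Windows of high-dose-only higher genes held 1 to 49 CpG and those of genes lost again 0 to 41, so these single windows do not stand for their classes.

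GSK032 was read at the same 4 doses, in libraries the sorting did not use. Of the 101 genes lost again with DAC, 73 were called higher at the high than at the middle doses of GSK032 and none lower, where 4.86% and 0.852% of all tested genes were (limma). Their median GSK032 change was 1.70 on the log2 scale. Among the 71 with at least 200 exonic bases, 52 were called higher and none lower. MAGEA4 was at 58.6 and 63.6 FPKM at 2000 nM and 77.0 and 85.4 FPKM at 10000 nM, against 0.138 and 0.0629 FPKM at 80 nM and 16.6 and 17.2 FPKM at 400 nM of GSK032. Each step of GSK032 was higher than the one before, and the 10000 nM libraries lay above every DAC library of day 4. CYP11A1 reached 34.6 and 36.9 FPKM at 10000 nM GSK032, against 9.04 and 7.71 FPKM at 400 nM. EPX was at 119.7 and 93.8 FPKM at 2000 nM and 85.3 and 54.8 FPKM at 10000 nM GSK032, against 13.1 and 13.0 FPKM at 80 nM and 79.2 and 71.2 FPKM at 400 nM. STAR was lower at 10000 nM GSK032, at 50.0 and 46.0 FPKM, than at 2000 nM, at 85.4 and 76.4 FPKM, while its high doses together lay 0.70 ± 0.08 above the middle ones.

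The difference between the compounds in their high minus middle change was called lower for DAC in 97 of the 101, where 5.31% of tested genes were. Since it holds the contrast that chose the genes, it is a description. It was -6.69 for ZNF595, -6.52 for MAGEA4 and -5.88 for CYP11A1 on the log2 scale (DAC minus GSK032). In the other direction stood GZMA, SPARC and FCER2. GZMA, a protease of cytotoxic lymphocytes, was at 109.8 and 82.1 FPKM at 2000 nM and 125 and 116 FPKM at 10000 nM, against 20.9 and 11.7 FPKM at 80 nM and 45.6 and 41.1 FPKM at 400 nM of DAC, and at 14.0 and 14.2 FPKM in DMSO. With GSK032 it was at 2.09 and 1.95 FPKM at 2000 nM and 1.19 and 0.387 FPKM at 10000 nM, against 13.3 and 12.0 FPKM at 80 nM and 3.93 and 2.83 FPKM at 400 nM, so the compounds moved it in opposite directions. FCER2, the low-affinity IgE receptor, was at 11.7 to 26.3 FPKM with high and 3.55 to 5.85 FPKM with middle doses of DAC, and at 1.7 to 1.75 FPKM with high and 3.53 to 11.8 FPKM with middle doses of GSK032.

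**Figure D2:**
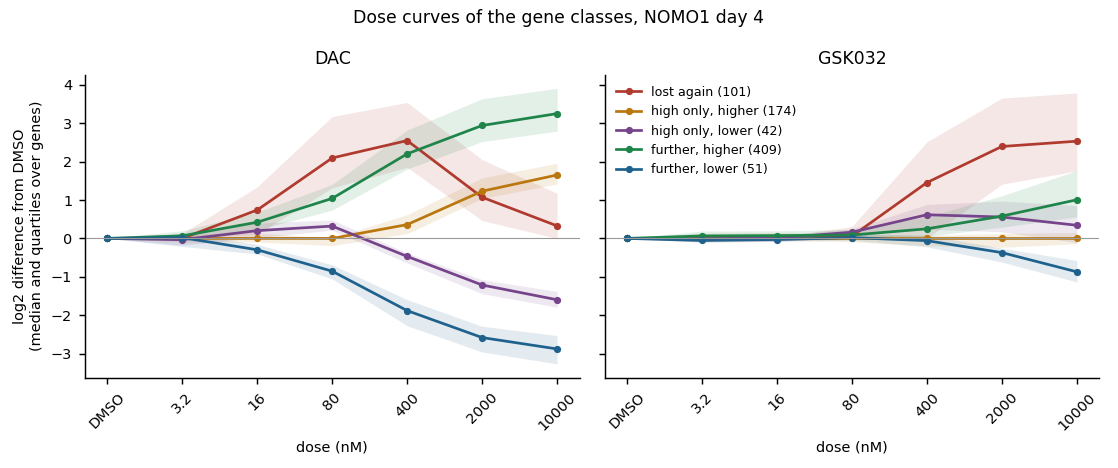
Median (line) and quartiles (band) over the genes of each class of the log2 difference from the DMSO mean of day 4, against dose in nM, with DAC on the left and GSK032 on the right. The number of genes stands in the legend. With DAC the genes lost again peak at 400 nM with a median of 2.55 and end at 0.33 at 10000 nM, and with GSK032 the same genes end at 2.53.

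Along the DAC doses, the median difference of the 101 genes from DMSO was 0 at 3.2 nM, 0.74 at 16 nM, 2.09 at 80 nM, 2.55 at 400 nM, 1.07 at 2000 nM and 0.33 at 10000 nM on the log2 scale. Along the GSK032 doses it was 0.06 at 80 nM, 1.45 at 400 nM, 2.39 at 2000 nM and 2.53 at 10000 nM. The curves share the DMSO libraries. At 400 nM DAC the 101 genes were read on other days against DMSO of the same day. On day 1, 11 were called higher, on day 2, 58 and on day 6, 79, and none was called lower on any of the 3 days. Over all tested genes 0.38%, 3.55% and 14.9% were called higher and 0.0289%, 0.361% and 9.75% lower. CYP11A1 was at 75.9 and 71.8 FPKM at 400 nM on day 6, against 0.149 and 0.0674 FPKM in DMSO of that day, and EPX at 31.8 and 19.9 FPKM against 9.32 and 6.21 FPKM. These days bear on 400 nM only.

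In the other lines the same doses of DAC were compared in tables fitted apart, with no test between lines. Of the 101 genes, 58 were tested in THP1, where 9 were lower at high than at middle doses and 1 higher, against 1.3% of all tested genes lower. In MV411, 56 were tested and 14 were lower, against 3.83% of all. Of the 9 lower in THP1 and the 14 lower in MV411, 8 were lower in both (88.9% and 57.1%). They were MAGEA4, STAR, MS4A3 and 5 histone genes (HIST1H1A, HIST1H1T, HIST1H2BB, HIST1H3C and HIST1H4F). Reads of histone genes alike in sequence can be shared. MAGEA4 in THP1 was at 32.9 and 37.5 FPKM at 2000 nM and 18.8 and 19.7 FPKM at 10000 nM, against 50.3 and 50.4 FPKM at 80 nM and 59.5 and 58.8 FPKM at 400 nM. In MV411 it was at 52.5 and 30.6 FPKM at 2000 nM and 10.3 and 10.3 FPKM at 10000 nM, against 56.1 and 49.7 FPKM at 80 nM and 100.2 and 89.7 FPKM at 400 nM. Both lines were thus lowest at 10000 nM among these doses and still above their 4 DMSO libraries, of which the highest held 1.37 FPKM. ZNF595 fell in MV411, to 3.61 to 13.3 FPKM at high doses against 11.8 to 23.2 FPKM at middle doses, and differed by -0.33 in THP1, which was not called. The lineage genes EPX and GATA1 were too low to test in both, with EPX at up to 0.488 FPKM in MV411.

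**Figure D3:**
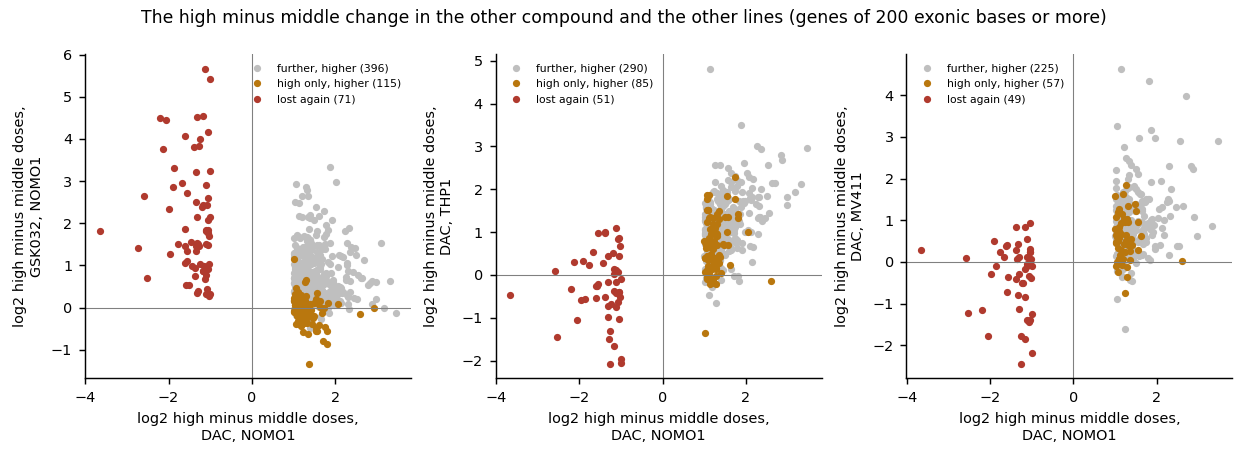
Each point is a gene of at least 200 exonic bases in the genes lost again (red), those that only the high doses raised (ochre) or those that rose further (grey). The horizontal axis is the log2 high minus middle change with DAC in NOMO1, which chose the genes, and the vertical axes give the same change with GSK032 in NOMO1, DAC in THP1 and DAC in MV411. Of the 71 genes lost again, 52 are called higher with GSK032 and none lower.

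Genes moved by high doses while the middle doses left them near DMSO were 174 higher and 42 lower. The class depended on averaging 80 and 400 nM. With 400 nM alone as the middle dose, 61 of the 174 and 1 of the 42 remained in their class, and with 80 nM alone 155 and 19. CST1, a cystatin that inhibits cysteine proteases (chr20:23747553-23751268), was at 2.16 and 1.96 FPKM at 2000 nM and 6.72 and 7.31 FPKM at 10000 nM, against 0.0356 and 0.0435 FPKM at 80 nM and 0.232 and 0.0305 FPKM at 400 nM. It was listed at 0 in both DMSO libraries and in all 8 libraries of these GSK032 doses, and all 4 high DAC libraries lay above every middle one. The difference was 2.92 ± 0.09 on the log2 scale (SE, adjusted p = 7.06e-20, limma). GJB2, the gap junction protein connexin 26 (chr13:20187463-20193010), was at 44.1 and 47.7 FPKM at 2000 nM and 61.4 and 68.7 FPKM at 10000 nM, against 14.0 and 13.7 FPKM at 80 nM and 15.8 and 21.4 FPKM at 400 nM. DMSO held 16.9 and 18.4 FPKM, so the middle libraries lay around DMSO and the high ones well above.

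LARP6, which binds collagen mRNAs, was at 16.3 and 16.2 FPKM at 2000 nM and 19.7 and 19.9 FPKM at 10000 nM, against 3.5 and 2.28 FPKM at 80 nM and 7.39 and 8.22 FPKM at 400 nM. DMSO held 3.75 and 3.43 FPKM, and the 400 nM libraries already lay above it, by 1.02 on the log2 scale (adjusted p = 0.000473, limma). LIPG, the endothelial lipase, was at 13.6 to 16.5 FPKM at high doses, 2.87 to 5.64 FPKM at middle doses and 3.21 and 3.0 FPKM in DMSO. ABLIM3, an actin-binding protein, was at 4.45 to 8.05 FPKM at high doses, 0.567 to 1.91 FPKM at middle doses and 0.98 and 0.537 FPKM in DMSO. The noncoding IGFL2-AS1 was at 5.45 to 12.2 FPKM, 0.182 to 1.54 FPKM and 0.293 and 0.684 FPKM in the same order, and as an antisense gene counted without a stated strand it is uncertain. DDIT3, the stress factor CHOP, rose by 1.21 ± 0.08, and fell short of a difference of 1 with 2000 nM alone as the high dose or 400 nM alone as the middle dose. Of the 174, 59 were short or without annotation, and 4 were called higher and 1 lower between high and middle doses of GSK032 (2.3% higher, against 4.86% of all). In THP1 132 were tested and 37 were higher at high DAC doses, 28.0% against 4.05% of all, and in MV411 25 of 103, 24.3% against 3.84%. GJB2, LIPG and LARP6 were among those higher in THP1, at 2.28, 1.42 and 1.32 on the log2 scale, and none of the 3 was tested in MV411.

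The 42 genes that only the high doses lowered, on average, included granule and myeloid genes. BPI, an antibacterial granule protein (chr20:38304123-38337505), was at 23.4 and 20.1 FPKM at 2000 nM and 14.7 and 13.4 FPKM at 10000 nM, against 120.0 and 130.5 FPKM at 80 nM and 48.7 and 48.1 FPKM at 400 nM. With 78.5 and 71.4 FPKM in DMSO, its 80 nM libraries lay above DMSO and its 400 nM libraries below, so the middle mean lay near DMSO while neither dose did. In 28 of the 42 the highest dose group was 80 nM. From 80 to 400 nM 12 were already called lower, where 0.732% of all tested genes were. The same libraries chose the 42, so this is a description. SRGN, the granule proteoglycan serglycin, was at 3539 and 3068 FPKM at 2000 nM and 2169 and 1937 FPKM at 10000 nM, against 14717 and 13663 FPKM at 80 nM and 5869 and 5663 FPKM at 400 nM, and at 9952 and 9151 FPKM in DMSO. RNASE2 was at 122 to 241 FPKM at high doses, 437 to 914 FPKM at middle doses and 565 and 705 FPKM in DMSO. S100A8, a calcium-binding protein of monocytes and neutrophils, was at 1639 and 1508 FPKM at 2000 nM and 928 and 902 FPKM at 10000 nM, against 5969 and 3419.9 FPKM at 80 nM and 2853 and 2952 FPKM at 400 nM. DMSO held 4220.3 and 3952 FPKM, and the 80 nM libraries lay on either side of it. GFI1, a repressor of granulocyte differentiation genes, fell by 1.13 ± 0.06 on the log2 scale. On day 6, 23 of the 42 were called lower at 400 nM DAC against DMSO, and none higher, where 9.75% of all tested genes were lower. Between high and middle doses of GSK032, 2 of the 42 were higher and 1 lower, against 4.86% and 0.852% of all. In THP1 2 of 38 were lower and none higher, against 1.3% of all lower, and in MV411 2 of 36 were lower and 2 higher, S100A8 among the higher, against 3.83% and 3.84% of all. The lower share in THP1, 5.26%, lay above that of all genes, but these GSK032, THP1 and MV411 counts hold at most 2 genes each. The median of the class was -0.38 in THP1 and -0.47 in MV411 on the log2 scale, against -0.03 and -0.05 over all tested genes. With GSK032 it was 0.06, against 0 over all.

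**Figure D4:**
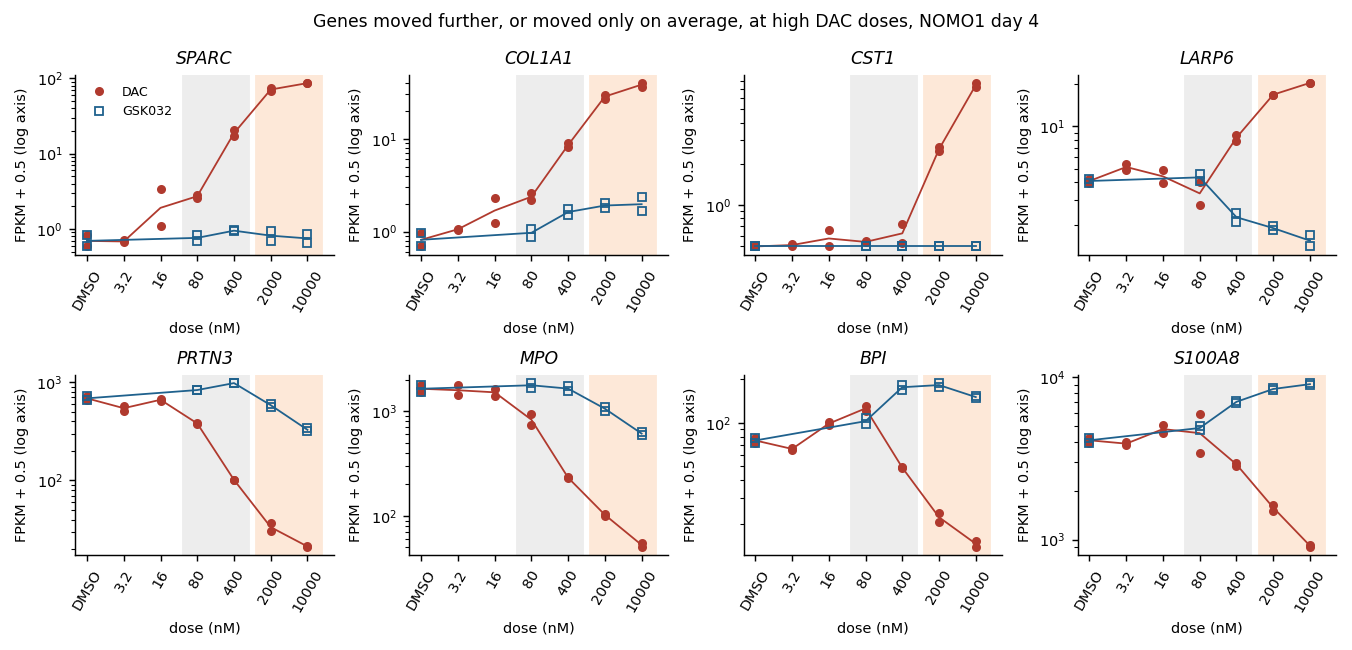
FPKM + 0.5 (log axis) of 8 genes against dose in nM with DMSO at the left. Points are single NOMO1 libraries of day 4 (filled red, DAC; open blue, GSK032), lines join geometric means, and grey and orange bands mark the middle and high doses. SPARC and COL1A1 climb at each step from 80 nM of DAC, CST1 appears at 2000 nM, and PRTN3, MPO, BPI and S100A8 are lowest at 10000 nM.

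Genes already higher at middle doses and higher still at high doses numbered 409, and SPARC, ELN and MGP had the largest changes among those named from them. SPARC, a collagen-binding matrix protein (chr5:151661096-151687165), was at 74.6 and 66.4 FPKM at 2000 nM and 84.8 and 86.8 FPKM at 10000 nM, against 2.35 and 2.09 FPKM at 80 nM and 16.5 and 20.0 FPKM at 400 nM. DMSO held 0.321 and 0.0842 FPKM, so every high library lay above every middle one. SPARC differed by 3.46 ± 0.24 on the log2 scale (SE, adjusted p = 1.24e-12, limma). At high doses of GSK032 it was at 0.145 to 0.447 FPKM, against 0.188 to 0.453 FPKM at middle doses. In THP1 and MV411 SPARC rose between middle and high DAC doses by 2.97 and 2.91. COL1A1, the main chain of type I collagen, was at 26.6 to 39.6 FPKM at high doses, 1.69 to 8.49 FPKM at middle doses and 0.191 and 0.461 FPKM in DMSO. ELN, elastin, was at 36.8 to 61.0 FPKM, 1.24 to 11.2 FPKM and 0.496 and 0.526 FPKM in the same order. MGP, the matrix Gla protein, and PLAT, the tissue plasminogen activator, rose by 3.17 and 2.97. Of the 409, 117 were called higher and none lower between high and middle doses of GSK032, 28.6% against 4.86% of all. In THP1 189 of 298 tested were higher (63.4%, against 4.05% of all) and in MV411 96 of 233 (41.2%, against 3.84% of all).

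Markers of other cell types moved with dose. Between high and middle doses, 4.94% of all tested genes rose and 1.55% fell. Of 11 tested fibroblast and matrix genes, 7 rose and none fell, with a median of 1.37, and their list of 14 summed to 333 to 410 FPKM at high doses, 59.6 to 166 FPKM at middle doses and 36.6 to 46.4 FPKM in DMSO. Of 13 tested epithelial genes, 7 rose and none fell. CLDN4 and KRT7, a tight junction protein and a keratin, rose by 2.12 and 2.09, and KRT19 was listed at 0 in both DMSO libraries and at 6.46 to 9.16 FPKM at high doses, 0.542 to 4.85 FPKM at middle doses. Of 8 tested T cell genes 5 rose, CD3G and CD8A among them, with sums of 181 to 236 FPKM at high, 79.2 to 192.5 FPKM at middle doses and 11.7 to 13.8 FPKM in DMSO for the list of 16. CD3E, CD247, CD2 and ZAP70 were among the 8 T cell genes too low to test, as were COL3A1, FAP and POSTN of the fibroblast list and GRHL2 of the epithelial one. In the high libraries 0 or 1 of the 16 T cell markers, 0 or 1 of the 14 fibroblast markers and none of the 14 epithelial markers were listed at 0. The 5 tested B cell genes were not called, and that list of 12 summed to 20.7 to 26.2 FPKM at high doses, 16.5 to 21.4 FPKM at middle doses and 6.10 to 6.60 FPKM in DMSO. The part of these marker levels in the other changes was not tested.

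Primary granule genes were lower at high doses. Of 14 tested, 12 fell and none rose, with a median of -1.77, where 1.55% of all tested genes fell and 4.94% rose. PRTN3, proteinase 3 (chr19:840960-848175), was at 36.5 and 29.9 FPKM at 2000 nM and 20.7 and 20.9 FPKM at 10000 nM, against 378 and 381 FPKM at 80 nM and 101 and 101 FPKM at 400 nM. DMSO held 651 and 719 FPKM, and each dose step of DAC from 80 nM lowered the mean. MPO, myeloperoxidase, was at 50.2 to 105 FPKM at high doses, 229 to 932 FPKM at middle doses and 1512 and 1770.0 FPKM in DMSO. MPO and EPX are neighbours on chromosome 17, from the same peroxidase family, and differed in course, since EPX was called above DMSO at middle doses and MPO below. DEFA4, a neutrophil defensin, and DEFB1, an epithelial defensin, fell by 2.69 and 2.68. Of 18 tested replication-dependent histone genes 13 fell and none rose, against the same shares of all tested genes, with a median of -1.23. HIST1H1B, a linker histone, was at 249 to 403 FPKM at high doses, 785 to 1804 FPKM at middle doses and 2400.4 and 2531 FPKM in DMSO. HIST1H3B fell by 1.56 ± 0.10. Most such genes make transcripts without a poly(A) tail, and reads of their copies can be shared.

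Other lists are set beside the share of all tested genes called, 4.94% higher and 1.55% lower. Counts of 1 member, of 2 members that rose, or of 3 among the 40 interferon-stimulated genes, lie near it or rest on few genes. APOE, APOC1 and ABCG1, targets of the oxysterol receptor LXR, rose among 7 tested, APOE to 119 to 229 FPKM at high doses against 16.4 to 49.4 FPKM at middle doses and 5.29 and 4.05 FPKM in DMSO. Of 27 cholesterol and fatty acid synthesis genes, HMGCS1, FADS2, FASN and DHCR7 fell, none rose and the median was -0.62. FASN, the fatty acid synthase, was at 15.2 to 15.6 FPKM at high doses, 21.9 to 66.4 FPKM at middle doses and 93.3 and 95.7 FPKM in DMSO. Of 30 ribosomal protein genes 3 fell, RPS2, RPSA and RPS4X, and the median was -0.71. HMGCS1, RPSA and RPS4X were not called with median-of-ratios scaling. IFITM3, ISG20 and IFI27 rose among 40 interferon-stimulated genes, whose median was 0.03, and PTGS2 and IL6 among 27 genes of NF-kB and inflammation. MYB and GFI1 were the 2 of 19 KMT2A and stem cell genes that fell. Of the 24 monocyte maturation genes LILRB1 and FCGR3A rose, and S100A8, S100A9 and S100A12 fell. NNAT, MEST, H19 and DLK1 rose among 15 imprinted genes. DUSP1 and EGR2 rose among 18 immediate early genes, BMF among 24 apoptosis regulators, DDIT3 among 20 genes of ATF4 and serine synthesis and HMOX1 among 14 NRF2 targets. Of 16 heat shock and unfolded protein genes DNAJB9 rose and CALR fell, the second not with median-of-ratios scaling. None of 23 antigen presentation, 19 methylation machinery, 18 nucleoside uptake, 25 oxidative phosphorylation and 6 retrovirus-derived genes was called.

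None of 28 p53 target genes, 36 replication genes, 30 mitosis genes or 30 DNA damage and repair genes was called between high and middle doses. FDXR, a p53 target, differed by -0.87 ± 0.06 and MCM2, a part of the replication helicase, by -0.84 ± 0.07 on the log2 scale (SE), both under the size for a call. PMAIP1, another p53 target, went the other way, by 0.86 ± 0.09, with overlap of high and middle libraries. The median was 0.18 for the p53 targets and -0.30 for the replication genes. Against DMSO, 10 of the p53 targets were called higher and 2 lower at high doses, and 10 and 1 at middle doses. Over all tested genes it was 15.7% higher and 8.66% lower at high doses, and 9.57% and 3.39% at middle doses. Of the replication genes 10 of 36 were called lower at high doses against DMSO and none at middle doses. DNMT1, the main target, was at 32.4 to 38.1 FPKM at high doses, 41.3 to 57.2 FPKM at middle doses and 61.6 and 53.3 FPKM in DMSO, a difference of -0.44 ± 0.08 between high and middle (adjusted p = 2.66e-05, limma) that was under the size for a call. DNMT3A, DNMT3B and UHRF1, the cofactor that guides DNMT1, differed by 0.10, -0.15 and -0.25 and were not called.

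**Figure D5:**
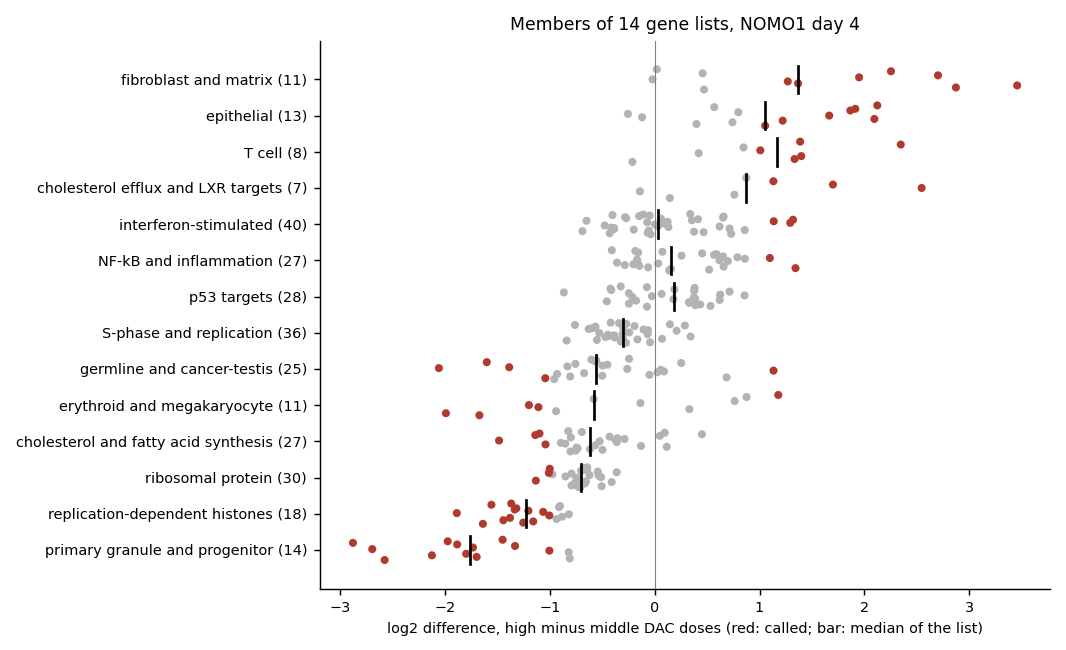
Each point is a tested member of a gene list, placed by its log2 high minus middle DAC difference in NOMO1 on day 4. Red points passed the test and size, grey ones did not, the black bar is the median of the list, and the number of tested genes stands in brackets. Primary granule and histone genes lie lowest with medians of -1.77 and -1.23, and fibroblast and matrix genes highest with 1.37.

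Of the 20 genes that the middle doses lowered and the high doses raised again, 17 were short or without annotation. IL31RA, an interleukin 31 receptor chain, was at 6.46 and 5.69 FPKM at 2000 nM and 9.99 and 9.22 FPKM at 10000 nM, against 3.59 and 2.57 FPKM at 80 nM and 2.5 and 2.48 FPKM at 400 nM. DMSO held 17.7 and 16.3 FPKM, so none of the 8 high and middle libraries reached it. RXFP1, the relaxin receptor, was at 1.98 to 3.04 FPKM at high doses, 0.398 to 1.09 FPKM at middle doses and 2.82 and 2.38 FPKM in DMSO. Both were called lower between high and middle doses of GSK032, by 1.8 and 1.38 on the log2 scale. Of the 20, 3 were called lower with GSK032 and none higher, where 0.852% and 4.86% of all tested genes were. The median of the 20 was -0.095, with 10 above 0 and 10 below. The number of genes lowered at middle doses and raised again rested on single libraries. It was 100 without the first 80 nM library, 6 without the second, 9 without the second DMSO library, 12 without the second 2000 nM library and 11 without the second 10000 nM library.

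At the edge of the size for a call, the genes lost again with the smallest fall were CTAG1A at -1.003 and MS4A3 at -1.005, and just outside stood LINC01238 at -0.99997 and TKTL1 at -0.959 on the log2 scale. In the authors' deposited table of log2 fold changes against DMSO, all 101 genes lost again, all 174 and 42 moved by high doses only, and all 409 that rose further had the same sign of change between the mean of the high and the mean of the middle doses. That table describes the same treatment groups, which chose these genes, so it is no separate test.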

How the data were processed

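Total RNA of 156 libraries was sequenced. The deposited files hold the authors' FPKM per gene for 52 libraries of each line, and a deposited table of log2 fold changes against DMSO. Salmon 0.12.0, DESeq2 and hg38 are named in the submitters' processing notes, and the roles of these tools, and whether strand was used, are not given in the sources used here. Gene type, length and position came from GENCODE 29, which held 56511 of 59939 gene IDs.

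Genes with at least 1 FPKM in at least 2 of the 52 NOMO1 libraries were tested on the scale log2(FPKM + 0.5) with limma (version 3.58.1, R 4.3.3). The scale understates changes of low genes. All 26 groups shared 1 estimate of the spread, with a trend and 26 residual degrees of freedom. A call needed a Benjamini-Hochberg adjusted p under 0.05 over all tested genes and a difference of at least 1. THP1 and MV411 were fitted apart. The fits were tested on simulated data. FPKM keep no exact depth, so the scale of each library was estimated from the steps of low values, and small values rest on few fragments.

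The members, classes and 30 gene lists were chosen with earlier results of these data known. Named genes were taken by rule: the 6 largest changes of each class, the 4 largest in each direction, up to 4 called members per list (2 where none was called), the methyltransferase genes, the 3 largest differences between the compounds in each direction and the largest of single dose steps, with at least 2 FPKM and no overlap of high and middle libraries. Genes of like dose curve were left out, since many tied. PRG2, HDC, IL1RL1, NR5A1 and the histones lost again were named after their values were seen, as were GP9, MS4A3, DEFA1, DEFA3, MEG3, AL117190.1, the genes at the edge of a call and list members named with no value of their own (MAGEC2, PAGE5, IL6, H19, FCGR3A). Alternatives changed the scaling, pseudocount, filter, libraries, doses pooled, DMSO days and variance trend, left out each library, or kept genes of at least 200 exonic bases.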

Additional observations from a re-analysis of the deposited data

Results flagged for a closer look

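Among 206 groups of 4 libraries, the high and the middle libraries of 103 named genes, 6 held 1 library apart from the other 3 by Dixon's limit on the gap over the range of log2(FPKM + 0.5). The limit is made for 4 libraries of 1 kind, while each group here holds 2 doses. How many groups would pass it by chance is therefore not known. GATA2 was at 98.9 FPKM in the first 80 nM library and at 146 to 156 FPKM in the other middle libraries, a gap of 0.853 of the range. HIST1H1D was at 293 FPKM in that library and at 178 to 193 FPKM in the others (0.838). IL31RA was at 3.59 FPKM in it and at 2.48 to 2.57 FPKM in the others (0.912). DNAJB9 was at 2.17 FPKM in the second 80 nM library and at 3.84 to 4.11 FPKM in the other middle libraries (0.89). CST1 was at 0.232 FPKM in the first 400 nM library and at 0.0305 to 0.0435 FPKM in the others (0.924). MEST was at 18.3 FPKM in the second 2000 nM library and at 20.0 to 20.3 FPKM in the other high libraries (0.876).

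The change between high and middle doses differed between DAC and GSK032 for 6 genes named for that difference (limma, Benjamini-Hochberg adjusted over all genes). DAC minus GSK032, it was 4.03 for GZMA, 3.58 for SPARC and 3.5 for FCER2, and -6.69 for ZNF595, -6.52 for MAGEA4 and -5.88 for CYP11A1, on the log2 scale.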

How the results depend on the processing

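None of the 80 named genes called between high and middle doses changed sign under any of the 25 alternatives. The difference between the compounds had 903 higher and 1102 lower calls, and 1527 higher and 1403 lower with 80 nM alone as the middle dose. With 400 nM alone as the middle dose, 636 genes were called with DAC and 766 with GSK032, 188 and 5 were lost again from above and from below, and 66 higher and 7 lower were moved by high doses only. With 80 nM alone they were 2649 with DAC, 84 lost again from below, and 696 and 192 moved by high doses only. Of the 101 genes lost again, 84 remained with 400 nM alone and 60 with 80 nM alone, and 71 with a pseudocount of 1. Median-of-ratios scaling kept 27 of the 42 genes lower at high doses only. With DMSO of days 2, 4 and 6, 121 of the 174 higher and 25 of the 42 lower at high doses only remained. With 10000 nM alone as the high dose, 170 were lost again and 80 lower at high doses only, and with 2000 nM alone 53, 12 lost again from below and 26 lower at high doses only. A pseudocount of 0.1 gave 1806 calls with GSK032 and 174 and 41 genes lost again, and a pseudocount of 1 gave 9 lost again from below and 92 higher at high doses only. Without the filter 10 were lost again from below. Among genes of at least 200 exonic bases, an alternative chosen after seeing the data, 3 were lost again from below and 109 were higher at high doses only. Leaving out 1 library gave 1302 to 1479 calls between high and middle doses, 2549 to 3084 for middle against DMSO, 4871 to 5119 for high against DMSO, 1182 to 1190 with GSK032 and 1961 to 2203 for the difference between compounds. The genes lost again were 95 to 144 from above and 6 to 100 from below, and those of high doses only 171 to 201 higher and 41 to 52 lower. The cause of these shifts was not tested.

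With the replicate number as a block, 1359 genes were called between high and middle doses, 2713 for middle and 5080 for high against DMSO, 1191 with GSK032 and 2026 for the difference between compounds. The block gave 102 and 22 genes lost again and 173 and 41 of high doses only, so no call count moved by over 1.5 times. Same-numbered libraries correlated at 0.03 to 0.13 in their deviations, over 0.1 in 3 of 10 pairs, so the numbers were not taken to pair libraries. GSK032 results could not be computed from the 10 DAC and DMSO libraries alone. Of 80 named genes called, 47 kept their call under all 25 alternatives.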
